A study of Caenorhabditis elegans with 2 samples.

Results

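The homeobox genes of Caenorhabditis elegans that carry a ceh symbol were examined for peaks of the ONECUT factor CEH-39. The members were the protein-coding genes of the Ensembl annotation (WBcel235) named ceh- plus a number, without the 6 ONECUT genes, and 57 of 19973 protein-coding genes met this rule. Its sites had been mapped by ChIP-seq, the sequencing of DNA recovered with the protein, in whole embryos of mixed stage and mixed sex. The strain, OP169, has the genotype unc-119(ed3) III; wgIs169, and its insertion targets ceh-39, so the protein is followed as an eGFP fusion expressed from a transgene. There was 1 group of 2 biological replicates and no second condition. All cells of the embryos were sampled together, so strong binding in few cells and weak binding in many cannot be told apart.

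Homeobox genes encode transcription factors that bind DNA through a homeodomain, and in the worm they specify cell fates, above all the identities of neuron classes. They fall into classes by homeodomain sequence. The HOXL class contains the Hox genes, and the POU, LIM and SINE classes carry further conserved domains. TALE genes of the Pbx type encode partners of Hox proteins. CEH-39, a ONECUT protein with a cut domain and a homeodomain, is known as an X signal element in sex determination.

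For each member, peak summits were sought from 2000 bp upstream to 200 bp downstream of every transcript start, called the window here. The 4 deposited lists in ce11 were searched, 1 of them thresholded by the irreproducible discovery rate (IDR), a measure of consistency between replicates. The IDR list, which the authors label optimal, held 1244 peaks, which were the 1244 strongest of the pooled list. A place in it did not require an overlapping peak in replicate 2, as the ceh-100 peak below shows. The pooled list and the list of replicate 1 held 30000 peaks each and that of replicate 2 held 27014; these 3 are relaxed lists that include background by design. A rank is the place of a peak in its own list by the authors' deposited signal value, with 1 the strongest. Sequencing depth is unknown, since the lists give no read counts.

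Of the 57 genes, 5 had an IDR summit in the window, or 8.77% (95% exact interval 2.91 to 19.3%), against 8.32% of all protein-coding genes. The member share is therefore near the share of genes in general. The 5 genes were ceh-20 and ceh-40, which encode Pbx-type TALE proteins, and ceh-91, ceh-100 and ceh-86. All 5 summits lay closer to a start of the member than to any other protein-coding start. Assignment to the nearest start alone left 8.77% of the members and 5% of all genes with an IDR summit, a difference that was not tested. Without replicate 1, among the 1244 strongest peaks of replicate 2, 3 members had a summit (5.26%, against 7.13% of all genes). They were ceh-5, ceh-24 and ceh-40, so ceh-40 alone of the 5 IDR genes was among them. Without replicate 2, among the 1244 strongest of replicate 1, 6 members had a summit (10.5%, against 8.28%), the 5 IDR genes and ceh-93.

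The sequence at each of these summits is given below in ce11 (WBcel235) coordinates, 5′ to 3′ along the strand of the gene, together with that of ceh-93, the 1 gene outside the IDR list among the strongest 1244 peaks of replicate 1. The stretches are 101 bases centred on the summit, 201 for ceh-91 to show its repeated cores, and for ceh-86 the 50 bases just upstream of its start. Capitals mark 4 hexamers on either strand. They are ATCGAT, the palindromic ONECUT core, and ATTGAT, a related core, with ACGCAG and GAGAGA, which led among hexamers at IDR summits in earlier results of these data. In ceh-100 the last 2 overlap.
ceh-20, chrIII:6979083-6979183, plus strand: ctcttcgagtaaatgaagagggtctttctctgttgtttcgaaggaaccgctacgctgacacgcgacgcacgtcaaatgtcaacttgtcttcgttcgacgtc
ceh-40, chrX:12320880-12320980, minus strand: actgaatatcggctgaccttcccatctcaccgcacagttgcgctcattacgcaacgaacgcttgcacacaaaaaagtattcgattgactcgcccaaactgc
ceh-91, chrIII:11614955-11615155, plus strand: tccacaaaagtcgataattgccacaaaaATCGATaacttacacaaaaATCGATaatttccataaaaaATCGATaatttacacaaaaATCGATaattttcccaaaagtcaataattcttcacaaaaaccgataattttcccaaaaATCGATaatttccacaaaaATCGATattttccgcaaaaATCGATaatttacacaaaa
ceh-100, chrII:12603881-12603981, minus strand: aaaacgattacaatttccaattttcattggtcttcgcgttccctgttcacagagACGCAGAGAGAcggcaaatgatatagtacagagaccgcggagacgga
ceh-86, chrII:2432073-2432122, minus strand: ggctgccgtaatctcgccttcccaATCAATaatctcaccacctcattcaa
ceh-93, chrX:388904-389004, minus strand: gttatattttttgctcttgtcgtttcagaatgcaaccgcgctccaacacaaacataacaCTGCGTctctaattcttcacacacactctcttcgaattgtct

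The highest-ranking member peak belonged to ceh-20, a Hox cofactor gene homologous to fly extradenticle. Its peak on chromosome III, 6978958 to 6979307, had a signal value of 128 and rank 424 in the pooled list, with the summit 751 bp upstream of the start in intergenic sequence. The overlapping peak ranked 367 in replicate 1 (signal 112, −log10 q 3.65) and 2951 in replicate 2 (signal 17.6, −log10 q 0.3). The peak thus stood high in replicate 1 and did not reach a q-value of 0.05 in replicate 2. No other gene had this summit in its window.

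The second TALE gene, ceh-40, also encodes a Pbx-type protein, and its peak ranked high in both replicates. The peak on chromosome X, 12320755 to 12321104, had a signal value of 122 and rank 467, with the summit 153 bp upstream of the start. Its replicate ranks were 439 (signal 103) and 405 (signal 32), and the −log10 q was 3.65 in replicate 1 and 2.06 in replicate 2. The replicate summits were not at one place: that of replicate 1 lay 4 bp from the pooled summit and that of replicate 2 lay 128 bp from it, 25 bp upstream of the start. The window of F17A2.13 also contained the pooled summit. The third Pbx-type gene, ceh-60, had no IDR summit; its strongest pooled summit ranked 21429 (signal 18.3).

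The ceh-91 peak lay over an array of ONECUT cores. It covered chromosome III from 11614880 to 11615229, inside an intron of Y66A7A.4, with the summit 1691 bp upstream of the ceh-91 start, a signal value of 113 and rank 569. The overlapping peak ranked 522 in replicate 1 and 2134 in replicate 2, where the −log10 q was 0.43. In replicate 2 the region was split into 2 peaks, with summits 1789 and 1588 bp upstream of the start, on either side of the pooled summit. The peak held 8 ATCGAT matches between 11614945 and 11615142, whose starts were most often 19 bp apart (4 of 7 gaps). Of the 1244 IDR peaks, 15 (1.21%) held 5 or more matches, while 800 held none. A second, weaker summit 193 bp upstream of the ceh-91 start ranked 3249 (signal 41.7) and also had ATCGAT within 50 bp.

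The last 2 IDR peaks stood close to the lower end of the list, whose weakest signal value was 76.5. The ceh-100 peak (chromosome II, 12603756 to 12604105) had a signal value of 81.1 and rank 1124, with the summit 251 bp upstream. It ranked 861 in replicate 1 (signal 75.8) and was overlapped by no peak of replicate 2, whose 1 summit in the window lay at −1940 bp from the start, at rank 2535. The pooled summit also lay in the window of lips-15. The ceh-86 peak (chromosome II, 2431874 to 2432223) had a signal value of 79.4 and rank 1171, and its summit lay 23 bp downstream of the start, in the 5′ UTR. It ranked 851 in replicate 1 (signal 76.6) and 7037 in replicate 2 (signal 14), where the summit lay 147 bp from the pooled one, in an intron of ceh-86. For both genes the peak was thus high in replicate 1 and absent or low in replicate 2.

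**Figure D1:**
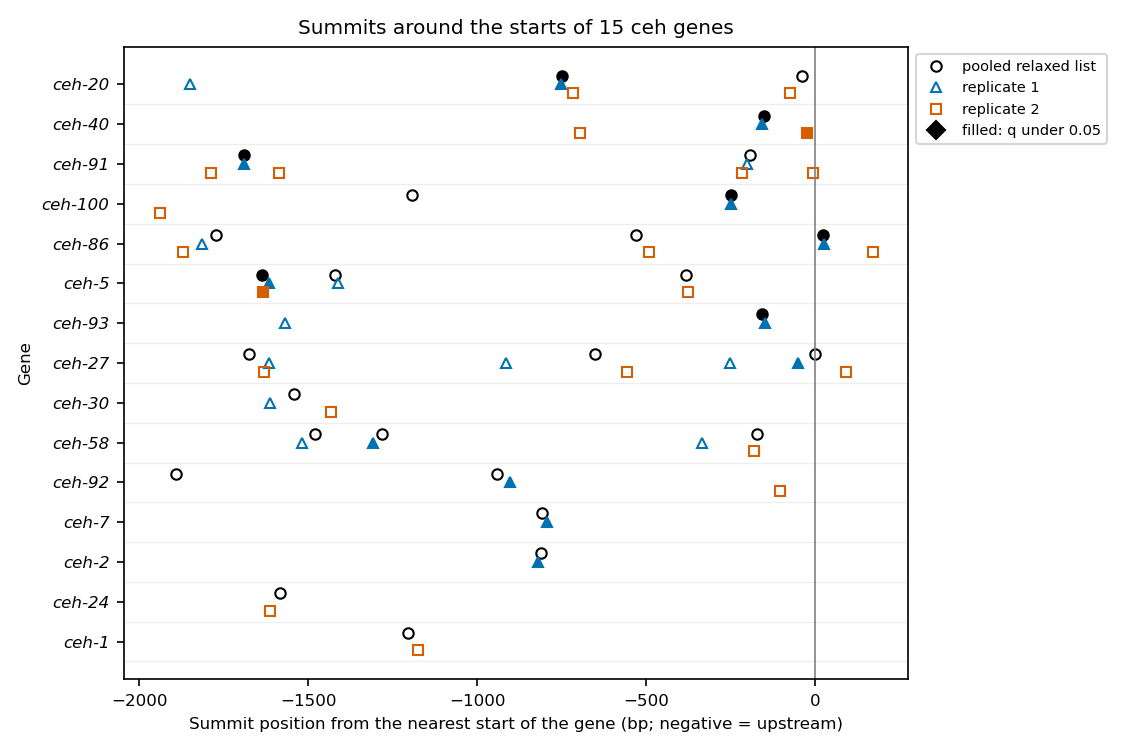
Position of every summit in the windows of 15 ceh genes (x axis, bp from the nearest start of the gene, negative upstream) for the pooled list (circles), replicate 1 (triangles) and replicate 2 (squares); filled symbols have a q-value under 0.05. Filled squares stand only at ceh-40 and ceh-5, while filled triangles stand at 12 genes.

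By the deposited q-values, 7 members had a pooled summit at a q-value under 0.05, or 12.3% (interval 5.08 to 23.7%), against 15.7% of all genes. They were the 5 genes above, ceh-5 and ceh-93. In replicate 1 there were 12, or 21.1% (interval 11.4 to 33.9%), against 20.4% of all genes. In replicate 2 there were 2, or 3.51% (interval 0.428 to 12.1%), against 5.03%. The same 2 genes, ceh-5 and ceh-40, were the only members below this q-value in both replicates (3.51%, against 4.61% of all genes). The whole list of replicate 1 held 3958 peaks under this q-value and that of replicate 2 held 790.

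The ceh-5 peak fell just short of the IDR list although it was ranked high in replicate 2. On chromosome I, from 9725358 to 9725707, it had a pooled signal value of 71.5 and rank 1411, with the same −log10 q of 3.52 as the 5 IDR peaks above. In replicate 1 it ranked 2565 (signal 38.3, −log10 q 2.67) and in replicate 2 it ranked 372 (signal 33.1, −log10 q 2.17), the highest rank of any member in that list. The summits of the 3 lists lay 1636, 1616 and 1633 bp upstream of the ceh-5 start. This position is in the 3′ UTR of eat-16, which encodes a regulator of G protein signalling, and within an intron of ocrl-1 on the other strand. The nearest protein-coding start was that of ceh-5.

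The ceh-93 peak had a counterpart in replicate 1 alone. On chromosome X, from 388779 to 389128, it had a pooled signal value of 52.8, rank 2290 and a −log10 q of 1.69, with the summit 157 bp upstream of the start. It ranked 1217 in replicate 1 (signal 62.1, −log10 q 3.65) and was overlapped by no peak of replicate 2.

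The remaining 5 members under a q-value of 0.05 in replicate 1 were ceh-92, ceh-58, ceh-27, ceh-7 and ceh-2. Their peaks ranked 2523, 3018, 3516, 3781 and 3791 in that list, in this order, and their −log10 q lay between 1.43 and 2.86. ceh-27 is an NK-2 type gene and ceh-2 is related to fly empty spiracles. The ceh-27 summit lay 51 bp upstream of the start, and the pooled summit of its peak stood 1 bp upstream at rank 4135 (signal 36). The ceh-7 summit was nearer to the start of prx-5, a peroxisomal import gene, and the ceh-92 summit was nearer to Y66D12A.7. None of the 5 peaks had a q-value under 0.05 in the pooled list. Of the next strongest pooled summits outside the IDR list, that of ceh-27 upstream (rank 3424, signal 40.3) was nearest to F46F3.3. That of ceh-30, a BarH type gene needed for survival of male sensory neurons, ranked 3578 (signal 39), with ranks of 16673 in replicate 1 and 4114 in replicate 2. That of ceh-58 ranked 4236 (signal 35.6), 1281 bp upstream of the start.

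Peaks of 2 more genes stood high in replicate 2 and low in the pooled list. The strongest replicate 2 summit of ceh-24, an NK-2 type gene, ranked 1024 (signal 23.5, −log10 q 1.01) 1613 bp upstream of its start, and that of ceh-1, an NK-1 type gene, ranked 1312 (signal 21.9, −log10 q 0.77) 1176 bp upstream. Replicate 1 listed no summit in either window, and the pooled ranks were 13350 and 12038.

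**Figure D2:**
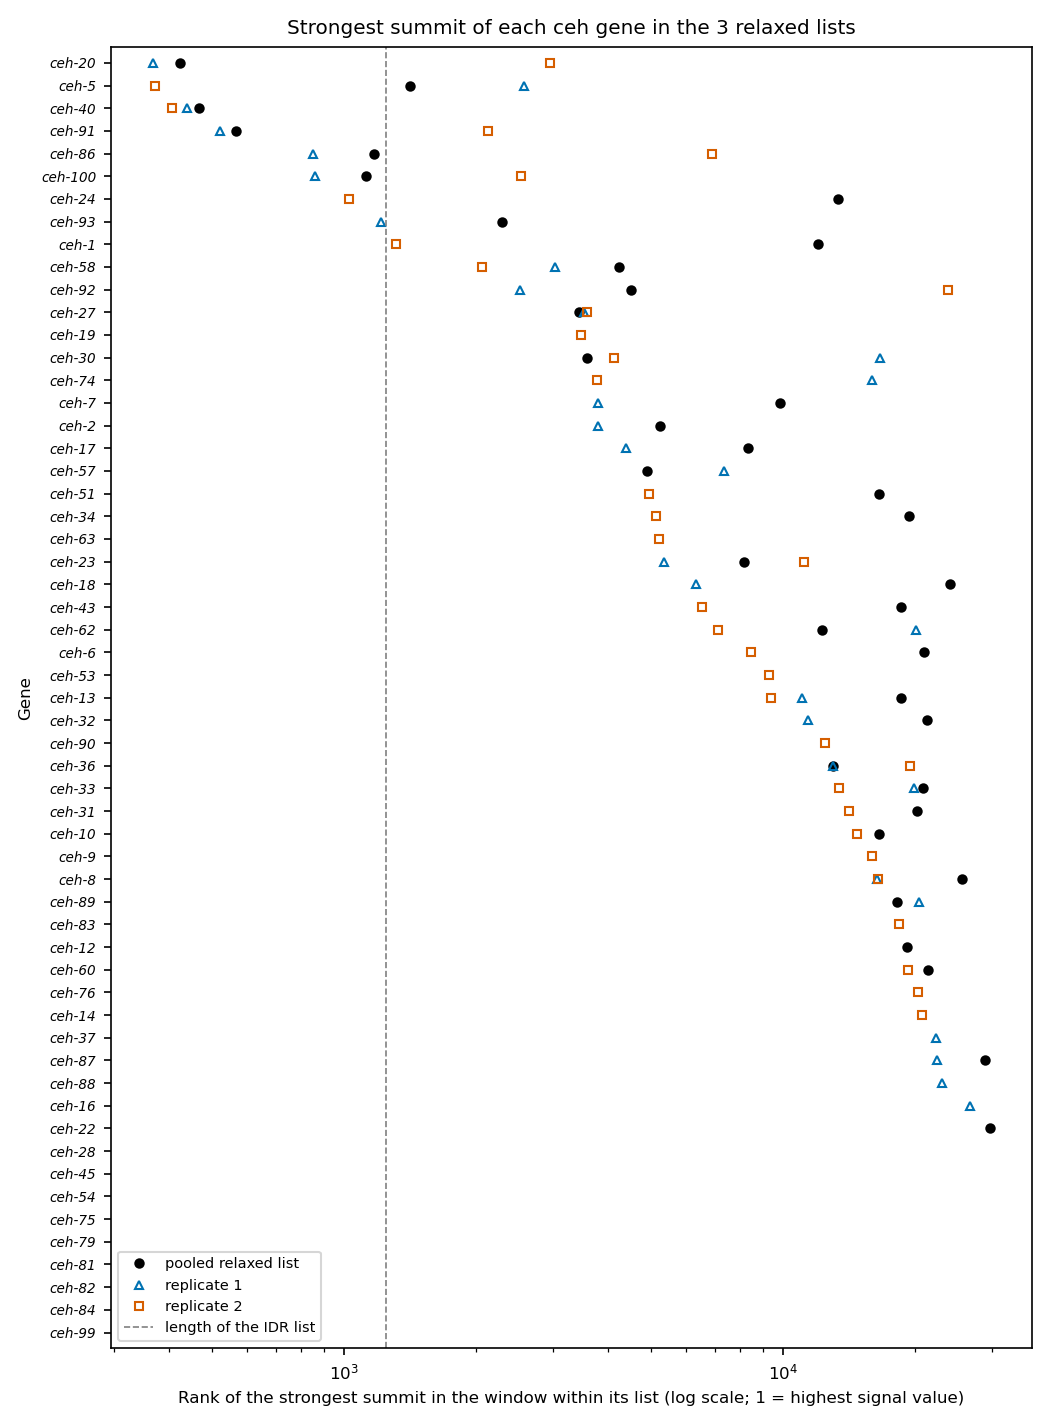
Rank of the strongest summit in the window of each of the 57 genes (rows, ordered by their best rank in any relaxed list) on a log axis, for the pooled list (filled circles), replicate 1 (triangles) and replicate 2 (squares), with the length of the IDR list dashed. Of the 5 genes left of the dashed line in the pooled list, ceh-40 alone is also left of it in both replicates, and the 9 genes at the bottom have no symbol.

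In the relaxed lists, 36 of the 57 genes had a pooled summit, or 63.2% (interval 49.3 to 75.6%), against 55.1% of all genes. Replicate 1 had a summit for 29, or 50.9% (interval 37.3 to 64.4%), against 52.6%, and replicate 2 for 34, or 59.6% (interval 45.8 to 72.4%), against 56.4%. Each of these intervals contains the share of all genes, and the order of the pooled shares turned with the settings. The members were below all genes with 500 bp upstream (26.3% against 33.7%), with 1000 bp (40.4% against 43.7%) and among the strongest 15000 peaks (35.1% against 39.3%). They were above all genes with 5000 bp (80.7% against 71.8%) and with the most upstream start only (59.6% against 52.9%). The same held with overlap of the peak in place of its summit (68.4% against 57.6%) and with the nearest start only (52.6% against 43.5%). A summit in both replicates, at any place in the window, was found for 17, or 29.8% (interval 18.4 to 43.4%), against 38.6% of all genes. The windows averaged 2611 bp for the members and 2574 bp for all genes. Per 100 kb of window the pooled list held 36.4 summits for the members and 34.6 for all genes, replicate 1 held 29 for the members and 34.2 for all genes, and replicate 2 held 33 for the members and 32 for all genes. The IDR list held 3.37 for the members, from 5 summits, and 2.42 for all genes.

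The 54 pooled peaks in member windows often had a counterpart in a single replicate. A peak of both replicates overlapped 17 of them, a peak of replicate 1 alone overlapped 15 and a peak of replicate 2 alone overlapped 16, while 6 were overlapped by neither. These overlaps were not counted over all pooled peaks, so they cannot be called particular to the members. No summit of the relaxed lists was shared by the windows of 2 members. Of the 54 summits, 42 were closest to a start of the member itself. Within 500 bp of a start there were 15, and 28 lay over 1000 bp upstream. These positions were not counted for the summits of all genes and describe the member summits only.

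**Figure D3:**
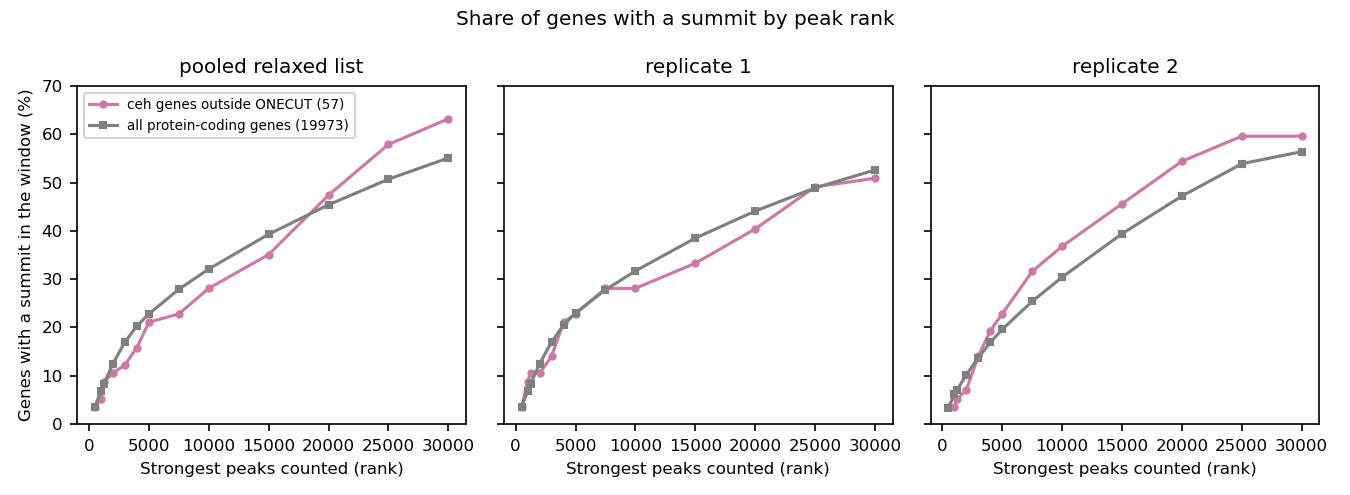
Share of genes with a summit in the window (y axis, percent) among the strongest peaks up to a given rank (x axis), for the 57 ceh genes and for all 19973 protein-coding genes in the pooled list and the lists of replicates 1 and 2 (27014 peaks in the last). At rank 5000 the shares were 21.1% and 22.8% in the pooled list, 22.8% and 23% in replicate 1, and 22.8% and 19.6% in replicate 2.

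By class, 2 of the 3 TALE genes with ceh symbols had an IDR summit, against 8.32% of all protein-coding genes. The TALE genes unc-62, psa-3 and irx-1, outside the members, had none. Among the members, the 11 NKL, 6 PRD, 3 SINE, 2 HOXL, 2 POU and 1 LIM genes also had none. The other 3 IDR genes were among 29 members given no class here. NKL genes had pooled summits in 8 of 11 cases, against 55.1% of all genes. Among them ceh-43, a Distal-less homologue, ranked 18545, and ceh-22, an NK-2 gene of pharyngeal muscle, ranked 29654, near the end of the list. ceh-16, the engrailed homologue, had a summit in replicate 1 alone, at rank 26750, and ceh-9 had one in replicate 2 alone, at rank 15966. The BarH type gene ceh-31, close to ceh-30, ranked 20244 in the pooled list. PRD genes had pooled summits in 4 of 6 cases. The ranks ran from 8334 for ceh-17, the Phox2 homologue, which ranked 4400 in replicate 1, through 13020 for ceh-36, an Otx type gene of sensory neurons, to 25566 for ceh-8. The Otx type gene ceh-37 had summits in replicate 1 alone (best rank 22346). The third PRD gene with a pooled summit past rank 10000 was ceh-10, a Chx10 homologue, at rank 16593.

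All 3 SINE genes had pooled summits, at ranks 19336 for ceh-34, 20858 for ceh-33 and 21252 for ceh-32. In replicate 1 ceh-32 ranked 11417 and ceh-34 had no summit, while ceh-34 ranked 5130 in replicate 2. The best replicate 1 summit of ceh-33 ranked 19933, but the replicate 1 peak that overlapped its best pooled peak ranked 29361. Both POU genes, ceh-6 and ceh-18, had pooled summits past rank 20000, while ceh-6 ranked 8478 in replicate 2 and ceh-18 ranked 6351 in replicate 1. Of the HOXL genes, ceh-13, the labial homologue, ranked 18596 in the pooled list and 9385 in replicate 2 (1077 and 1075 bp upstream). Its best replicate 1 summit, at rank 11078, lay elsewhere, 631 bp upstream, and no replicate 1 peak overlapped the pooled one. ceh-12, the HB9 homologue, ranked 19200 in the pooled list with no summit in either replicate. The LIM gene ceh-14 had a summit in replicate 2 alone, at rank 20744. No SINE, POU, HOXL, LIM or PRD gene had a q-value under 0.05 in any list, in classes of 1 to 6 genes each. Of all genes, 15.7% had one in the pooled list, 20.4% in replicate 1 and 5.03% in replicate 2.

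Among the other members without a class, ceh-51, a gene of early mesoderm, ranked 16588 in the pooled list and 4965 in replicate 2. The pooled ranks were 4892 for ceh-57, 8152 for ceh-23, 12298 for ceh-62, 18232 for ceh-89 and 28823 for ceh-87. ceh-74 had a summit in both replicates but not in the pooled list. Summits in replicate 2 alone were found for ceh-19, ceh-53, ceh-63, ceh-76, ceh-83 and ceh-90, at best ranks between 3469 and 20306, and ceh-88 had one in replicate 1 alone, at rank 23026.

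No summit of any list lay in the windows of 9 members, or 15.8% (interval 7.48 to 27.9%), against 27.3% of all genes. They were ceh-28, an NK-2 type gene of the pharyngeal neuron M4, ceh-45, the goosecoid homologue, ceh-54, ceh-75, ceh-79, ceh-81, ceh-82, ceh-84 and ceh-99. The genes ceh-81, ceh-82 and ceh-83 lie close together on chromosome II, between 1730403 and 1736533, and among them ceh-83 alone had summits, the best at rank 18400 of replicate 2.

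Most member summits, like most pooled summits in general, had no ATCGAT, the ONECUT core, within 50 bp. ATCGAT lay within 50 bp of 4 of the 54 pooled member summits, or 7.41% (interval 2.06 to 17.9%), against 5.76% of all 30000 pooled summits. These were both ceh-91 summits, the second-ranking ceh-5 summit (rank 11221) and a ceh-87 summit in the coding sequence of sup-9 (rank 28866). Of the 5 IDR summits ceh-91 alone had it, against 17.4% of all IDR summits. The ceh-100 peak held 2 ATCGAT matches farther from its summit, and the peaks of ceh-20, ceh-40 and ceh-86 held none. ATTGAT, on either strand, lay within 50 bp of 6 of the 54 summits, or 11.1%, against 10.7% of all pooled summits, and ceh-86 was the 1 IDR gene among them (5.87% of all IDR summits). ACGCAG lay at 2 member summits, those of ceh-100 and ceh-93, or 3.7% against 3.57%, and stood at 19.5% of all IDR summits. GAGAGA lay at 5, ceh-100 the 1 IDR gene among them, or 9.26% against 7.42%, and stood at 25.3% of all IDR summits. The 4 hexamers were counted alike in all sets, and a match describes the sequence only. ACGCAG and GAGAGA had been chosen because they led at IDR summits in earlier results of these data. Their shares of the IDR summits are therefore no independent finding.

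**Figure D4:**
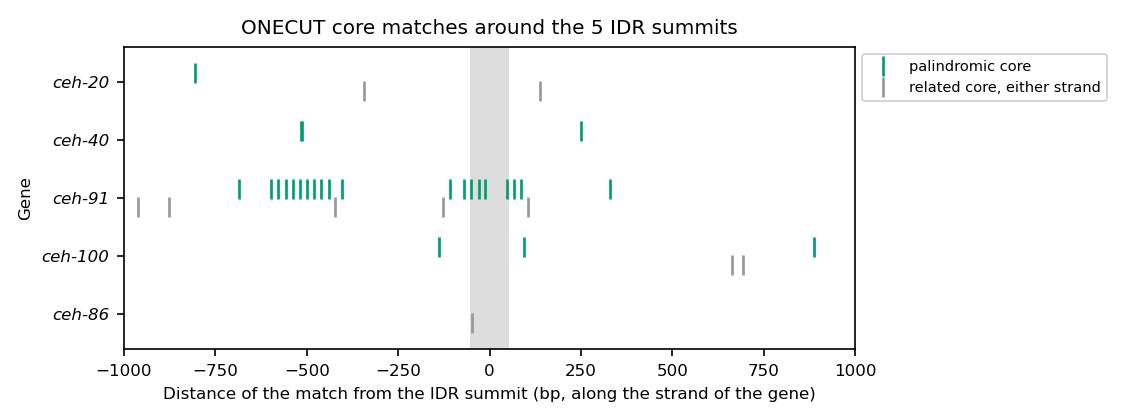
Matches of ATCGAT (green) and of ATTGAT on either strand (grey) within 1000 bp of the 5 IDR summits, along the strand of each gene (x axis, bp from the summit); the grey band marks 50 bp on each side. ceh-91 has 20 ATCGAT matches in this span, ceh-40 and ceh-100 have 3 each, ceh-20 has 1 and ceh-86 has none.

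Base composition differed among the 5 IDR summits. In the 101 bases around the summit G and C made up 49.5% at ceh-20 and at ceh-40, 45.5% at ceh-100 and 39.6% at ceh-86, but 24.8% at ceh-91. The median was 32.2% over the 54 pooled member summits, 31.7% over all pooled summits and 47.5% over all IDR summits. The ceh-91 summit was thus poorer in G and C than the other 4 and lay below the medians of all 3 sets.

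Of the 57 members 15 are on chromosome X, the chromosome that also carries ceh-39, and 1 of them, ceh-40, had an IDR summit, against 7.1% of all X genes. Chromosomes II and III each held 2 of the IDR genes, among 12 and 8 members, against 7.54% and 12.7% of all genes there. Chromosomes I, IV and V held none among 8, 3 and 11 members, against 12.3%, 8.59% and 4.71% of all genes. None of the 3 members on chromosome IV had a pooled summit, against 55.9% of all genes there.

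In a list of 37 homeobox genes with names outside ceh, none had an IDR summit (interval 0 to 9.49%), against 8.32% of all genes. The interval contains the share of all genes. The list includes the Hox genes lin-39 and mab-5, the POU gene unc-86, the LIM gene mec-3 and the TALE genes unc-62, psa-3 and irx-1. Of that list 22, or 59.5%, had a pooled summit, against 55.1% of all genes. None had a pooled q-value under 0.05 (interval 0 to 9.49%), against 12.3% of the ceh genes and 15.7% of all genes. In replicate 1 the 1 gene under this q-value was pal-1, a caudal homologue, or 2.7% (interval 0.0684 to 14.2%), against 21.1% of the ceh genes and 20.4% of all genes. For comparison, 2 of the 6 ONECUT genes had an IDR summit in the same window, ceh-39 itself (rank 53) and ceh-38 (rank 63). That is 33.3% (interval 4.33 to 77.7%), against 8.32% of all genes. Both ranked above every one of the 57 members. For ceh-39, any reads from the transgene and those from the native locus cannot be told apart here. No difference between these lists was tested.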

How the data were processed

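The 4 peak lists in ce11 came from embryos of 1 strain, in 2 biological replicates per the labels. Per the deposited description files, each relaxed list was derived from its replicate's alignments, the pooled one from those of both, together with a file that the control-normalized tracks also draw on, and the IDR list was derived from these 3. No control library was used here. The signal value is the authors' deposited value, of unstated scale, and served for ranks and description. The deposited −log10 q was used as given. The aligner and the caller are not given in the sources used. ce11 is the same assembly as WBcel235, and no peak ended beyond its chromosomes; gene models came from Ensembl release 115. One gene named ceh-44 in the RefSeq table has another symbol in Ensembl and was no member.

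A gene had a summit when it fell in the window of any transcript start, and overlaps between lists needed 1 bp. Intervals are 95% Clopper-Pearson intervals over genes or summits and cover counting error only. No test was made, since there was 1 group. The members and lists were chosen with earlier results of these data known. Text named all members with an IDR summit, a q-value under 0.05 or no summit, and the next 5 by signal; others were grouped by class. The window search recovered all simulated summits planted inside the windows, which checks the code only. Python 3.11.15, numpy 2.4.6, scipy 1.17.1 and matplotlib 3.10.9 were used.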

Additional observations from a re-analysis of the deposited data

How the results depend on the processing

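Shares of the 57 members are set against those of all protein-coding genes. IDR summits: the 5 members became 3 with 500 bp upstream (5.26% against 5.35%), 8 with 5000 bp (14% against 12.3%) and 3 among the strongest 622 peaks (5.26% against 4.39%). Without replicate 2 there were 6 (10.5% against 8.28%). Without replicate 1 there were 3 (5.26% against 7.13%), of which ceh-40 alone was an IDR gene. Pooled summits: the 36 became 15 with 500 bp (26.3% against 33.7%), 23 with 1000 bp (40.4% against 43.7%) and 20 among the strongest 15000 peaks (35.1% against 39.3%), and were 29 without replicate 2 (50.9% against 52.6%) and 34 without replicate 1 (59.6% against 56.4%). The pooled share of the members was thus below that of all genes under 4 of 9 alternatives. Both replicates: the 17 became 6, 10 and 33 with 500, 1000 and 5000 bp (10.5% against 18.7%, 17.5% against 27% and 57.9% against 59.2%), and 10 in the stronger part of each list (17.5% against 24.3%). Pooled q-value under 0.05: the 7 became 4 with 500 bp (7.02% against 10.3%) and 11 with 5000 bp (19.3% against 22.6%). They were 12 without replicate 2 (21.1% against 20.4%) and 2 without replicate 1 (3.51% against 5.03%). Assignment to the nearest start left 7 (12.3% against 10.1%), so the order of these shares turned with the settings. ATCGAT: the 4 summits became 1 within 25 bp (1.85% against 3.26% of all pooled summits) and 8 within 100 bp (14.8% against 10.2%). In the list of replicate 1, 4 of 43 member summits had it (9.3% against 6.65% of all summits). In that of replicate 2, 5 of 49 had it (10.2% against 4.19%). Assignment to the nearest start gave 5 members with an IDR summit (8.77% against 5%) and 30 with a pooled summit (52.6% against 43.5%), and the strongest 2488 pooled peaks gave 7 members (12.3% against 14.7%). The causes were not tested. No paired analysis was possible because there was 1 group. Depth is unknown, so no limit from read counts could be set.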

Other observations

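IDR summits outside the windows were also looked up. None of the 57 members had an IDR summit inside the gene but outside its window, against 0.601% of all protein-coding genes. The nearest IDR summit lay within 5 kb of the gene for 10 members, the 5 with an IDR summit in the window included, or 17.5% against 18.1% of all genes. It lay within 10 kb for 15, or 26.3% against 26.9%, and the median distance was 18596 bp for the members and 28164 bp for all genes, a difference that was not tested. Upstream of the gene, beyond the window, IDR summits stood at 4700 bp from ceh-24 (rank 288, signal 153), 4682 bp from ceh-63 (rank 849, signal 93.8) and 4394 bp from ceh-81 (rank 1103, signal 81.8). Downstream of the gene, IDR summits stood 1529 bp from ceh-93 (rank 167, signal 187) and 1247 bp from ceh-88 (rank 399, signal 131). Both downstream peaks ranked above those in the windows of the 5 IDR members, of which ceh-20 was the highest at rank 424.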
